A study of Mus musculus with 3 samples.

Results

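Described here are 9 regulators of interferon signalling in mouse neural stem cells (NSCs): the interferon regulatory factors Irf1, Irf2, Irf3, Irf5, Irf7, Irf8 and Irf9, the transcription factor Stat2 and the inhibitor Socs1. They were chosen by name, as all array probes whose current symbol is one of these 9 genes, which gave 9 of 27670 gene names and 13 of the 41174 distinct probes on the array. Irf1, Irf3, Irf8 and Irf9 had 2 probes each and the other 5 genes had 1, and all 13 were bright enough to be tested.

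The study compared NSCs labelled Dnmt3a-/- (KO) with NSCs labelled wildtype (WT) on 3 two-colour Agilent arrays, each described as 1 of 3 biological replicates. Dnmt3a encodes a de novo DNA methyltransferase. Both kinds of NSC came from mouse embryonic stem cells (ES cells) that were first taken off feeder cells (mouse embryonic fibroblasts), and were grown without serum in medium with EGF and bFGF. No interferon treatment is named for either group. The labels do not say whether the replicates came from separate derivations or how many lines or clones each genotype had, so p-values measure the spread between these samples, which may be technical. On all 3 arrays the RNA labelled KO carried the dye Cy3 and the RNA labelled WT carried Cy5, so a bias of a single probe toward 1 dye cannot be told apart from genotype. The Dnmt3a probes went against the labels: the brightest read 2644, 2762 and 2601 in the channel labelled KO and 1256, 1406 and 1371 in the channel labelled WT, and all 3 tested Dnmt3a probes were higher in the former. The sources used here do not say whether these probes lie in the deleted part of the gene. The groups are therefore called labelled KO and labelled WT throughout, and each direction below rests on those labels.

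In the interferon response, sensors of foreign nucleic acid activate IRF3 and IRF7, which switch on genes for type I interferons. Secreted interferon binds its receptor, and the receptor's Janus kinases phosphorylate STAT proteins. STAT2 then joins IRF9 in a complex called ISGF3, which binds interferon-stimulated response elements and raises the transcription of many genes, several of its own components included. Pairs of STAT proteins also bind gamma-activated sites, for example at Irf1. IRF1 is an activator and IRF2 can oppose it at the same elements, IRF5 and IRF8 are best known from immune cells, and SOCS1 inhibits the Janus kinases.

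The oligonucleotides show which transcript parts were read. Of the 13 probes 3 span an intron, since their 60 bases lie across 146 to 351 bases of the genome (positions on mouse build mm7, from the scanner files), so they match spliced RNA. They are the only Irf7 probe, on the minus strand at chr7:137682028-137682378, the dimmer Irf9 probe at chr14:50473491-50473701 and the dimmer Irf1 probe at chr11:53730701-53730846. They are printed in lower case, with no base marked, because the Irf7 reading rests on the first alone and the others gave readings unlike the brighter probe of their gene.
Irf7 A_51_P421876: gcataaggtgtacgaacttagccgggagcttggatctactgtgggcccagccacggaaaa
Irf9 A_52_P176013: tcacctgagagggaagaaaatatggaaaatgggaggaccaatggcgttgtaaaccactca
Irf1 A_52_P175685: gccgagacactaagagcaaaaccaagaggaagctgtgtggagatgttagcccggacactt
The other 10 probes each lie in 1 stretch of 60 bases. The brighter Irf9 probe is at chr14:50476767-50476826 and the Stat2 probe at chr10:127793622-127793681. The Socs1 probe is on the minus strand at chr16:10461534-10461593. The Irf2 probe is at chr8:45625001-45625060, the brighter Irf3 probe at chr7:41178031-41178090, the Irf5 probe at chr6:29469047-29469106 and the brighter Irf8 probe at chr8:119391398-119391457. No gene annotation of that build was used here, so exons and untranslated regions are not assigned.

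With the brightest probe standing for each gene, Irf9, Stat2, Irf7 and Socs1 were lower in the NSCs labelled KO, Irf2, Irf3, Irf5 and Irf8 were higher, and Irf1 did not pass the test. A ratio passed when limma's moderated test against 0, two-sided over 3 arrays, gave a Benjamini-Hochberg adjusted p under 0.05 over the 26627 tested probes. That threshold was passed by much of the array: 22.0% of 18033 genes were higher and 24.8% were lower, 46.8% in either direction. The 4 higher and 4 lower of 9 genes have to be read against those shares. Over all 13 probes 5 were higher and 4 lower, against 20.7% and 23.6% of tested probes (44.4% in either direction). Of the lower genes, Irf7 was bright enough to be tested only through the labelled WT channel, so its call adds nothing to that count. The 9 probes that passed had the same sign on all 3 arrays. A pass of the mean ratio over 3 arrays makes this likely, so it adds no support. For 8 of the 13 probes the levels in the 2 channels did not overlap, against 43.0% of tested probes. Irf7 is among the 8 and, tested only through the labelled WT channel, adds nothing to that count either. Most ratios were small. Irf9 alone passed and differed by at least 1.5-fold, which 4.0% of genes did. The members' median log2 ratio was -0.018, beside a median of -0.0108 over all tested probes. When the background model was fitted on all spots, 2 member probes were higher and 2 lower. Calls over the 26627 tested probes fell as well, from 5521 higher and 6291 lower to 2690 and 3670. When ratios were centred on the median in place of loess, limma's test called no member probe higher (0 at an unadjusted p under 0.05) and 6 lower. Over the array it then called 1197 higher and 13360 lower.

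**Figure D1:**
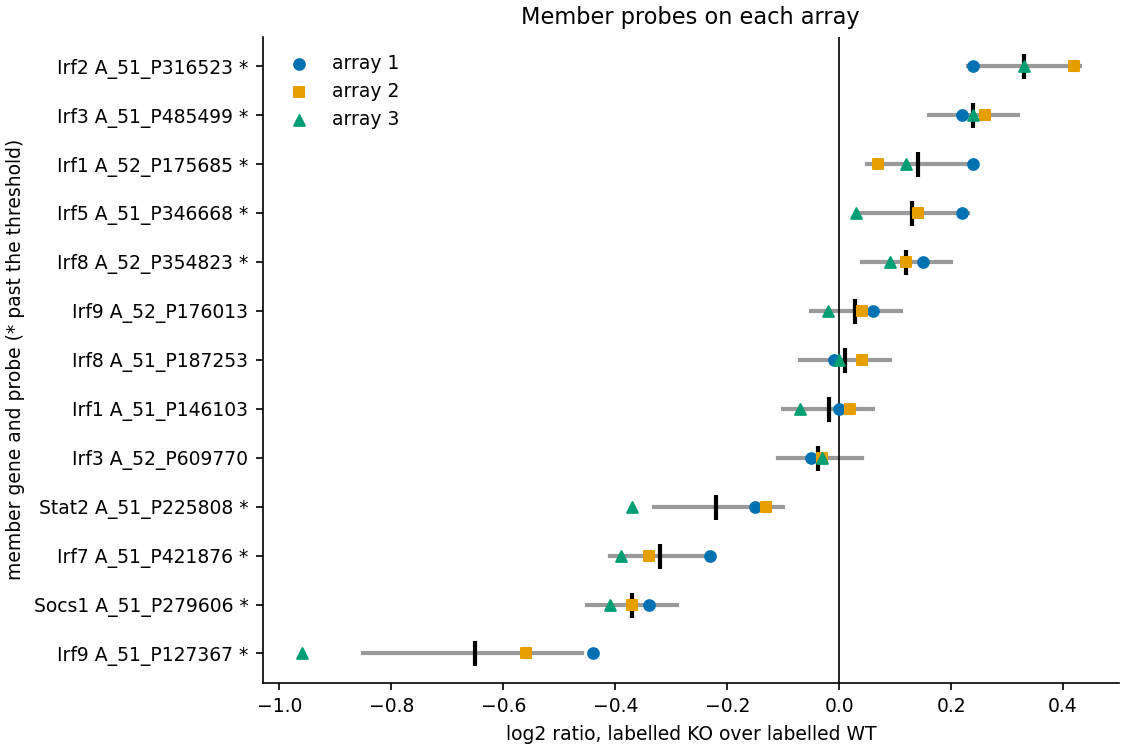
Log2 ratio (labelled KO over labelled WT; horizontal axis) of the 13 member probes (vertical axis) on arrays 1 to 3. Points are single arrays, the black tick is the mean of 3 and the grey bar its 95% confidence interval from limma. The Irf9 probe A_51_P127367 lies farthest from 0, at -0.44, -0.56 and -0.96.

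Irf9, the DNA-binding IRF of ISGF3, differed most among the members. Levels are linear intensities after loess within and Aquantile between arrays, with no absolute unit, and are not compared between probes. The brighter Irf9 probe (A_51_P127367) read 756, 717 and 561 in the labelled KO channel of arrays 1, 2 and 3, and 1023, 1061 and 1088 in the labelled WT channel. The channels did not overlap, and the labelled WT values varied less than the labelled KO values. The log2 ratio was -0.65 ± 0.27 (SD, n = 3; 95% confidence interval -0.85 to -0.46), 1.57-fold lower in the labelled KO NSCs (adjusted p = 0.00046). In bulk RNA, fewer cells with a transcript and less of it per cell cannot be told apart. The second Irf9 probe (A_52_P176013), printed above, read 96.2, 95.7 and 97.3 against 92.1, 92.9 and 98.8. Its channels overlapped, and its log2 ratio of 0.028 ± 0.045 (95% interval -0.05 to 0.11) did not pass (adjusted p = 0.55). The 2 Irf9 probes therefore disagreed. The dimmer one was well above background on all 3 arrays in both channels. With an offset of 10 in place of 50 it was at 0.045, and with the scanner's processed signals at -0.10, neither past the threshold. The cause of the disagreement was not tested.

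Stat2, the STAT partner of IRF9 in ISGF3, differed less. Its probe read 1011, 992 and 849.6 in the labelled KO channel and 1121, 1084 and 1101 in the labelled WT channel. The channels did not overlap, and array 3 held the lowest labelled KO value. The log2 ratio was -0.22 ± 0.14 (SD, n = 3; 95% interval -0.33 to -0.1), 1.16-fold lower (adjusted p = 0.0094). Without array 3 it was -0.14 and did not pass (adjusted p = 0.058), and with the scanner's own processed signals the same size, -0.22, did not pass either (adjusted p = 0.092). By their brightest probes, Irf9 and Stat2 were thus both lower in the labelled KO channel, by 1.57-fold and 1.16-fold.

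**Figure D2:**
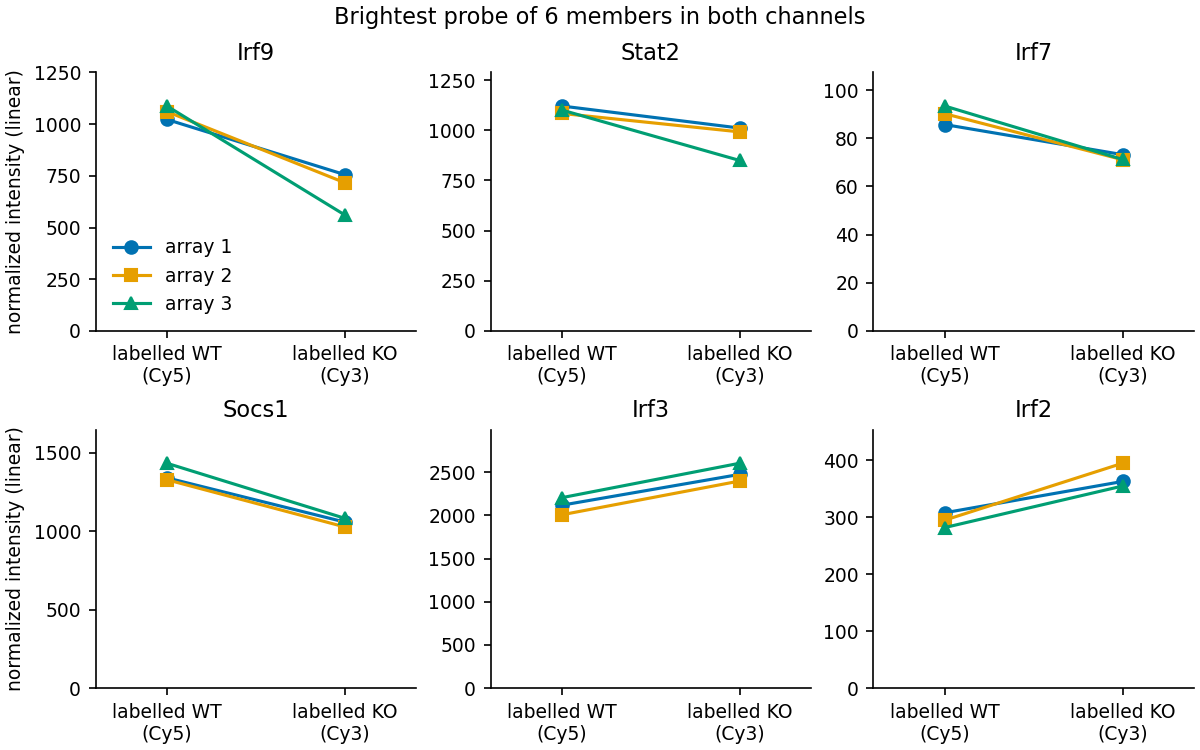
Normalized intensity (vertical axes, linear, from 0) of the brightest probe of 6 members in the labelled WT (Cy5) and labelled KO (Cy3) channels; each line joins both channels of 1 array. Irf9 was lowest on array 3, at 561, while Irf3 and Irf2 were higher in the labelled KO channel on each array.

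Irf7 and Irf3 act upstream, at the interferon genes. Irf7, the factor that amplifies type I interferon production and is itself interferon-inducible, read 73.2, 71.1 and 71.2 in the labelled KO channel and 85.7, 90.2 and 93.4 in the labelled WT channel. The channels did not overlap, but the probe was not well above background in the labelled KO channel on any array, while it was in the labelled WT channel on 3. A probe that is tested only because its higher channel is bright enough had to differ in that direction, so its test (log2 ratio -0.32 ± 0.083, n = 3, adjusted p = 0.0004) is given as a description. In the main processing Irf7 measured 1.25-fold lower in the labelled KO channel. This is no lower limit, since the probe was not well above background in that channel. The lowest signal of any probe well above background was below the probe's own, so it gave no separate bound. The size moved with the background correction, and the call was lost under the first of these: the log2 ratio was -0.035 with the background model fitted on all spots (adjusted p = 0.073), -0.66 with an offset of 10 and -1.93 with the scanner's processed signals, and under the stricter filter on dim probes Irf7 was not tested.

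Irf3, the constitutively expressed factor that starts the response, was higher. Its brighter probe read 2475, 2398 and 2604 in the labelled KO channel and 2118, 2007 and 2205 in the labelled WT channel. The channels did not overlap, and the ratio hardly varied, at 0.24 ± 0.016 (SD, n = 3; 1.18-fold higher, adjusted p = 0.00063). This direction turned under median centring, to -0.22 (adjusted p = 0.08), a scaling that moved the median of all tested probes to -0.222. Relative to that shift the probe stood at -0.0026. The shift is a single median, and median centring did not move all probes alike. The brighter Irf1 probe went from -0.018 to -0.48 and the dimmer Irf9 probe from 0.028 to 0.026. A position relative to the shift therefore does not set a probe against others of its brightness. The second Irf3 probe, at chr7:41173735-41173794 and designed on another cDNA, read 133, 133 and 122 against 137, 136 and 124, with a log2 ratio of -0.037 ± 0.01 that did not pass (adjusted p = 0.40). It passed as lower, against the direction of the brighter probe, with the scanner's processed signals (-0.18, adjusted p = 0.041) and with the authors' values (-0.17, adjusted p = 0.046). The Irf3 probes thus disagreed too.

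Irf2, which can compete with IRF1 for the same elements, was the highest member. It read 363, 395 and 355 in the labelled KO channel and 308, 295 and 282 in the labelled WT channel. The channels did not overlap, and the log2 ratio was 0.33 ± 0.092 (SD, n = 3), 1.26-fold higher (adjusted p = 0.00041). With the background model fitted on all spots it was 0.13. Under median centring it was 0.016 and did not pass. That is 0.24 above the median shift of all probes, which takes no account of a probe's brightness. Irf1, the activator, read 2376, 2323 and 2187 against 2368, 2295 and 2303 on its brighter probe, at chr11:53733970-53734029. The channels overlapped and the log2 ratio, -0.018 ± 0.05 (95% interval -0.1 to 0.06), did not pass (adjusted p = 0.72). Median centring gave -0.48 with an adjusted p of 0.0043 in limma's test. That is -0.26 relative to the same median shift, again with no account of brightness. The dim intron-spanning Irf1 probe read 119, 104 and 111 against 101, 99.6 and 102, and passed at 0.14 ± 0.086 (adjusted p = 0.024). It did not pass without array 1 (0.093) or without array 3 (0.15).

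Irf5 and Irf8, known for roles in macrophages, dendritic cells and B cells, were slightly higher. Irf5 read 95.3, 93.2 and 92.6 in the labelled KO channel and 82, 84.7 and 90.9 in the labelled WT channel. Its channels did not overlap, but they were close on array 3, and the log2 ratio of 0.13 ± 0.096 was near the threshold (adjusted p = 0.041). Without array 1 it was 0.082 and without array 2 it was 0.12, and neither passed. The brighter Irf8 probe read 466, 462 and 421 against 419, 424 and 396. Its channels overlapped, since the labelled KO value of array 3 was below the labelled WT value of array 2, although each array's own ratio was above 0. The log2 ratio was 0.12 ± 0.032 (SD, n = 3; adjusted p = 0.02). Leaving out any 1 array gave 0.11 to 0.14 with no pass, and median centring turned the sign, to -0.23 (adjusted p = 0.04). Relative to the median shift of all probes, with no account of brightness, this was -0.0033. The second Irf8 probe, at chr8:119390963-119391022, read 103, 105 and 109 against 104, 102 and 109 and did not pass (0.01 ± 0.029, adjusted p = 0.83).

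Socs1, the feedback inhibitor of Janus kinases, had the most even difference among the members that were lower. It read 1059, 1028 and 1083 in the labelled KO channel and 1341, 1329 and 1434 in the labelled WT channel. The channels lay well apart on all 3 arrays. The log2 ratio was -0.37 ± 0.033 (SD, n = 3; 95% interval -0.45 to -0.29), 1.29-fold lower (adjusted p = 6.7e-05). Socs1 and the brighter Irf9 probe were the 2 member probes that kept their direction and stayed past the threshold under each of the 11 alternatives, Socs1 between -0.80 and -0.27 and Irf9 between -1.06 and -0.50.

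The members that were lower had their lowest ratio on array 3 in 4 of 4 cases. This held for 27 of the 28 interferon-stimulated genes that were lower, described below, and for 28.9% of the 4477 genes that were lower on the whole array. It was not particular to the lower members. Irf5, the brighter Irf1 and Irf8 probes and the dimmer Irf9 probe had their lowest ratio on array 3 too. For Irf2, both Irf3 probes and the dimmer Irf1 and Irf8 probes another array was lowest. Among the lower members the depth of the dip differed. The brighter Irf9 probe went from -0.44 and -0.56 to -0.96. The SD of its ratio, 0.27, was reached or passed by 0.432% of tested probes. Stat2 went from -0.15 and -0.13 to -0.37, with an SD reached by 6.52% of tested probes. Socs1, at -0.34, -0.37 and -0.41, varied little, with an SD reached by 78.9%. Without array 3 the Irf9 ratio was -0.50, and without array 1 it was -0.76. What made array 3 differ was not tested.

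Among the other genes whose 3 ratios lay closest to those of Irf9, by the root mean square difference over 3 arrays, were Gbp6, Rnf213, Ifit3 and Gbp7. Gbp6, a guanylate-binding protein gene, lay at 0.036 log2 units, with ratios of -0.43, -0.59 and -0.9. Rnf213, an E3 ubiquitin ligase gene, lay at 0.067, with ratios of -0.53, -0.54 and -1.02. Ifit3, an antiviral gene of the IFIT family, lay at 0.11, with ratios of -0.44, -0.56 and -1.14. Gbp7 lay at 0.11 too, with ratios of -0.48, -0.73 and -0.86. They were chosen for this likeness, so their low ratio on array 3 is part of the choice. With the background model fitted on all spots the ratios of Gbp6 and Gbp7 were -0.13 and -0.12, and that of Irf9 was -0.52. An n of 3 arrays is small for such a likeness, and all ratios share the same 3 RNA pairs.

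**Figure D3:**
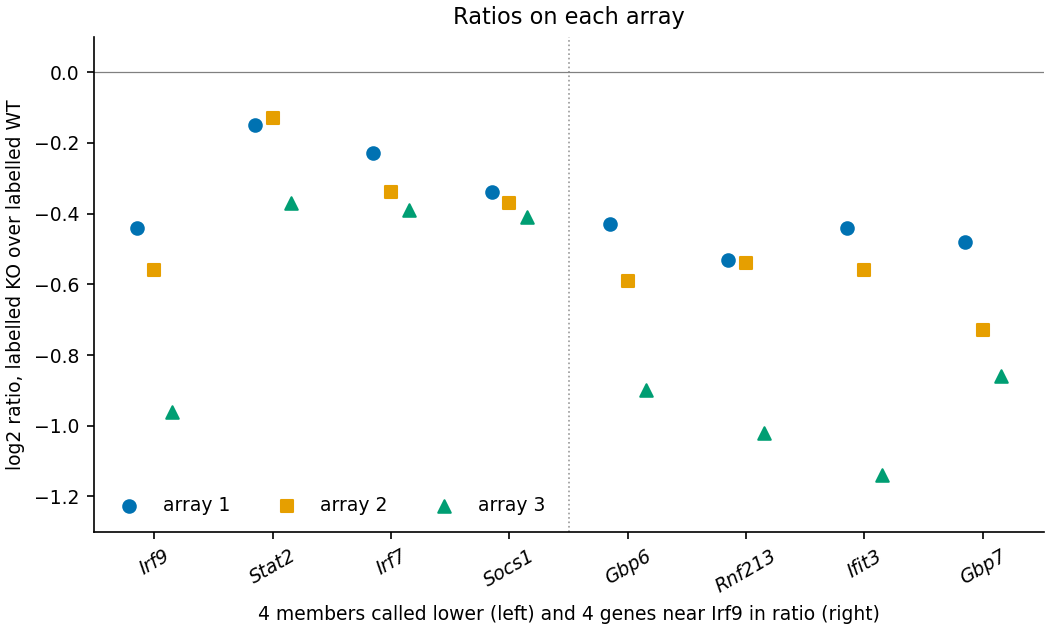
Log2 ratio (labelled KO over labelled WT; vertical axis) on each array of the 4 members that were lower and of 4 genes near Irf9 in ratio; colours and shapes mark the arrays. Array 3 is lowest for the 4 members, from -0.37 for Stat2 to -0.96 for Irf9; the other 4 genes were chosen for ratios like those of Irf9.

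The rest of the pathway was described by 6 lists of genes, ordered by role, with the brightest tested probe for each gene. Together they held 104 tested genes, of which 19 were higher and 46 lower. Interferon-stimulated targets made up 28 of the 46 and 5 of the 19. Over all genes 22.0% were higher and 24.8% lower, and the counts of each list below have to be read against those shares. Of the interferon genes themselves, 14 of 20 listed had a probe, 7 were tested, 1 was higher and 6 did not pass; Ifnb1 and Ifng were not bright enough to be tested. The 1 was Ifnab, a type I interferon gene, at 0.25 ± 0.11, which read 529.7, 632 and 489.6 against 469, 488 and 426. The sign of this probe turned under median centring, to -0.11, and the other tested Ifnab probe did not pass. Many interferon alpha genes are close copies of each other, so which of them such a probe reads is uncertain.

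Of 9 receptor and Janus kinase genes, all tested, 3 were higher and 2 lower, with a median of 0.033. Jak1, a kinase of the type I and type II receptors, and Ifngr1, the ligand-binding chain of the interferon gamma receptor, were higher at 0.22 each, and both turned under median centring, to -0.29 and -0.32. Il10rb, a chain shared by interferon lambda and interleukin receptors, was at -0.19, and Ifnar2, a chain of the type I receptor, was at -0.16, while another Ifnar2 probe was higher. Neither of these 2 passed with the scanner's processed signals. Of the 8 tested genes among 10 other STAT and IRF factors, 2 were higher and 3 lower, with a median of -0.0051. They included Stat3, the main STAT of interleukin-6 family signalling, which was higher at 0.57 (0.075 under median centring, not past the threshold), Stat6 and Stat5b, which were lower at -0.36 and -0.30 by their brightest probes, and Irf2bpl, a gene named for its likeness to IRF2-binding proteins, at 0.32, which turned to -0.09 under median centring. Of the other 2 Stat6 probes 1 was lower and 1 did not pass, and neither of the other 2 Stat5b probes passed.

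Among 16 feedback inhibitors, the group that Socs1 belongs to by function, 3 were higher and 4 lower, with a median of -0.022. The signs differed within the SOCS family. Socs3 was higher at 0.29 and Cish at 0.21, both turning under median centring to -0.19 and -0.17, and Socs4 was lower at -0.28. Usp18, which removes ISG15 from proteins and blocks the type I receptor, was far lower, at -1.24 ± 0.43: it read 672, 564 and 435 against 1250.2, 1216 and 1433 (2.36-fold, adjusted p = 0.00012). Like Irf9 it had its lowest ratio, -1.72, on array 3.

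Of 25 sensors and upstream kinases 22 were tested, 5 were higher and 9 lower, with a median of -0.091. Of the lower genes, Tlr3 was bright enough to be tested only through the labelled WT channel, so its call adds nothing to that count. Trim25, a ubiquitin ligase that acts on RIG-I, read 544, 510 and 608 against 4244, 4634 and 5680.3, a log2 ratio of -3.12 ± 0.14 (8.72-fold lower, adjusted p = 1.1e-08), and its other probe was lower too. The RNA sensors Ifih1 (MDA5), Ddx58 (RIG-I) and Dhx58 (LGP2) were lower at -0.93, -0.63 and -0.56 by their brightest probes. The other Ifih1 probe did not pass, and of the other 3 Ddx58 probes 1 was lower and 2 did not pass. With the background model fitted on all spots Ifih1, Ddx58 and Dhx58 were at -0.47, -0.39 and -0.12.

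The interferon-stimulated targets, genes that ISGF3 and the IRFs are known to regulate, were mostly lower. Of 46 listed, 44 had a probe and 42 were tested. Among the tested ones 28 were lower, 5 higher and 9 did not pass, against 24.8% lower and 22.0% higher over all genes. Oas1b and Samd9l were bright enough to be tested only through the labelled WT channel, so their lower calls add nothing to that count. Under the stricter filter on dim probes 39 targets were tested, with 26 lower and 5 higher. Over the 42 the median was -0.43, and by array it was -0.31, -0.36 and -0.62. The median was -0.17 with the background model fitted on all spots, -0.78 with the scanner's processed signals and -0.73 under median centring. Rtp4, an interferon-induced transporter-like gene, read 486, 395 and 291 against 1991, 1863 and 2225, at -2.40 ± 0.47 (5.29-fold lower, adjusted p = 5.4e-06). Oas1a, an oligoadenylate synthetase, was at -1.54, Igtp, an immunity-related GTPase, at -1.41, and Oasl2 at -1.39. With the background model fitted on all spots Oas1a was at -0.56 and Igtp at -0.86. In the main processing these 4 ratios lay farther from 0 than that of any member, but they were named for their size, and no test between targets and members was made.

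**Figure D4:**
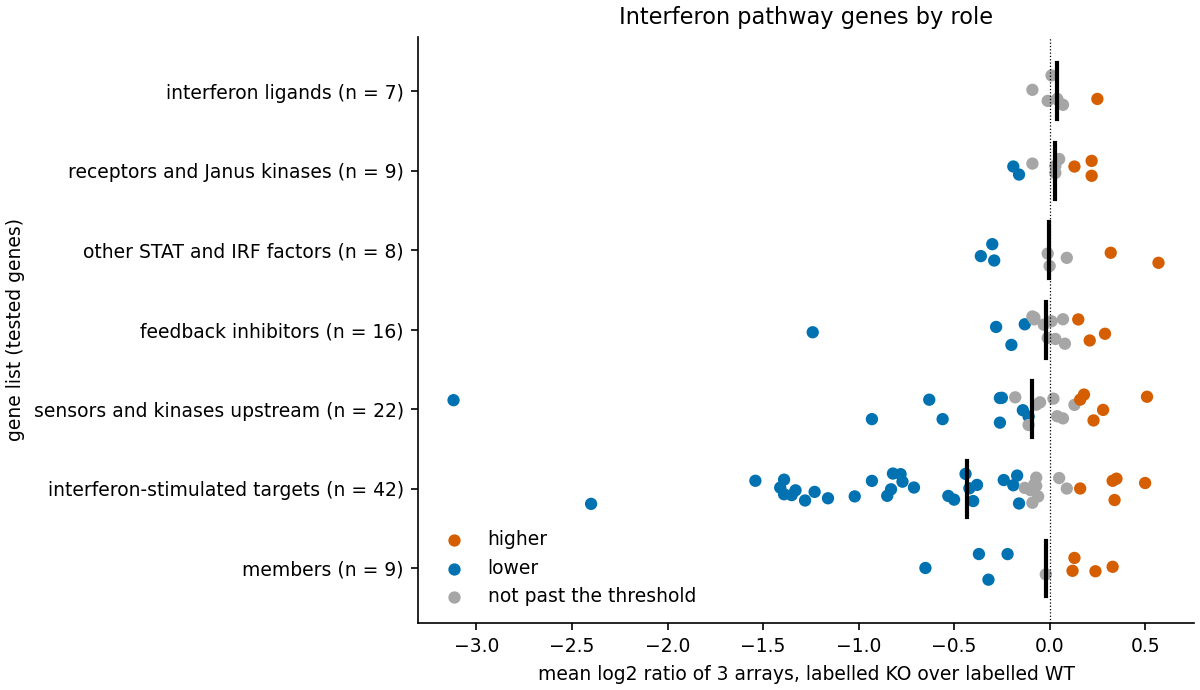
Mean log2 ratio over 3 arrays (labelled KO over labelled WT; horizontal axis) of each tested gene in 6 pathway lists and of the 9 members (vertical axis); colour gives the call and the black bar the list median. Interferon-stimulated targets spread to the left, with a median of -0.43, while the members lie between -0.65 and 0.33.

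Marker genes were read for cell types that the cultures could hold, against the 46.8% of all genes that passed in either direction (22.0% higher, 24.8% lower). Of 12 NSC markers, all tested, 2 were higher and 6 lower, and their summed level was 56006 to 57349.9 in the labelled KO channel and 64462 to 67430.4 in the labelled WT channel. Vim read 34012, 33330.1 and 33679 against 38237, 40548 and 37842, and together with Fabp7 it dominated that sum. The 2 higher were Pax6 and Prom1, and the 6 lower were Sox2, Fabp7, Vim, Slc1a3, Nes and Hes5. Of 15 microglia and macrophage markers, which bear on Irf5 and Irf8, 7 were tested, with 1 higher and 3 lower, and their sum was 1163 to 1199 against 1224 to 1272. The 7 were well above background on all 3 arrays in both channels, but several were dim. Cx3cr1 read 73.7, 76.6 and 72.9 against 69.7, 72.6 and 73.5, levels that include the offset of 50. Tmem119, at 579.7, 539 and 576 against 618, 582 and 614, weighed most in the sum. Among them Tyrobp, Fcrls and Tmem119 were lower, Cd68 was higher, and Csf1r, C1qb and Cx3cr1 did not pass. Aif1, C1qa, Itgam, Laptm5, P2ry12, Ptprc, Spi1 and Trem2 were not bright enough to be tested. Of 10 fibroblast markers, all tested, 2 were higher and 6 lower, with a sum of 161704 to 166007 against 207995 to 226726. The collagen genes Col1a2 and Col1a1 were lower at -1.48 and -0.97, and Postn, a matrix protein gene, was higher at 0.95. Col1a1 and Col3a1 had 3 saturated channel readings each, and bright probes dominate such a sum. Of 8 ES cell markers 5 were tested, with 1 higher and 1 lower and a sum of 564 to 584 against 590 to 597. The lower one, Dppa4, was bright enough to be tested only through the labelled WT channel, so its call adds nothing to that count. Nanog, Pou5f1 and Zfp42 were not tested. The part of these cell types in the members' ratios was not tested.

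Promoter windows of the members were searched for elements that these factors bind. RefSeq windows (build GRCm38.p6) run from 250 bases before to 50 after a gene's start, and 12 windows matched the 9 genes. The letters searched, on both strands, were GAAANNGAA, a core of IRF-binding elements, and TTCNNNGAA, that of gamma-activated sites that STAT pairs bind. Matches to the first were found in 8.56% of 32851 windows of the same length and to the second in 8.3%. Each was found in 3 of the members' 12 windows. The windows of Socs1 and Stat2 each held the IRF element, Irf1 and Irf8 held the gamma-activated site, and Irf2 held both. In the windows below capitals mark the matches; they are the promoters of 2 genes that were lower and of Irf1, which did not pass on its brighter probe. They lie at chr16:10785487-10785786 (minus strand), chr10:128270248-128270547 (plus strand) and chr11:53769764-53770063 (plus strand).
Socs1: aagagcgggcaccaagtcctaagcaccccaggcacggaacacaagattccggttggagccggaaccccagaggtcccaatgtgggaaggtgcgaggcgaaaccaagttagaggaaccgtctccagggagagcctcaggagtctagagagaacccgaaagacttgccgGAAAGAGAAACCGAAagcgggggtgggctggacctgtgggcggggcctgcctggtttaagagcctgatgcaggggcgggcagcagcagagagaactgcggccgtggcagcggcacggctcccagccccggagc
Stat2: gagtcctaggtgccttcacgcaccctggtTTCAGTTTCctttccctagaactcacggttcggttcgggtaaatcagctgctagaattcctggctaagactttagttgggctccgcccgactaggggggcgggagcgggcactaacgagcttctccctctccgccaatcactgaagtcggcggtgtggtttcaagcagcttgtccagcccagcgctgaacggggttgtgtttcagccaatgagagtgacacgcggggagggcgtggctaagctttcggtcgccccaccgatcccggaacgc
Irf1: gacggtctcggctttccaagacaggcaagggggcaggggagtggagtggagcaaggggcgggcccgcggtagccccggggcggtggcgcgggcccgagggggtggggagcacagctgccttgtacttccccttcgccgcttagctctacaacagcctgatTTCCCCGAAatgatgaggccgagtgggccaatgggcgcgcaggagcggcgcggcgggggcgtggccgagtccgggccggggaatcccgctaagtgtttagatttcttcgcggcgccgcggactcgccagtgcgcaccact
In Socs1 a pair of overlapping matches starts 83 and 77 bases before the gene's start. In Stat2 the match lies on the opposite strand, 221 bases before the start, and in Irf1 the gamma-activated site lies 90 bases before it. The letters were not found in the windows of Irf3, Irf5, Irf7 and Irf9. A match is a match of letters only, and binding was not measured.

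**Figure D5:**
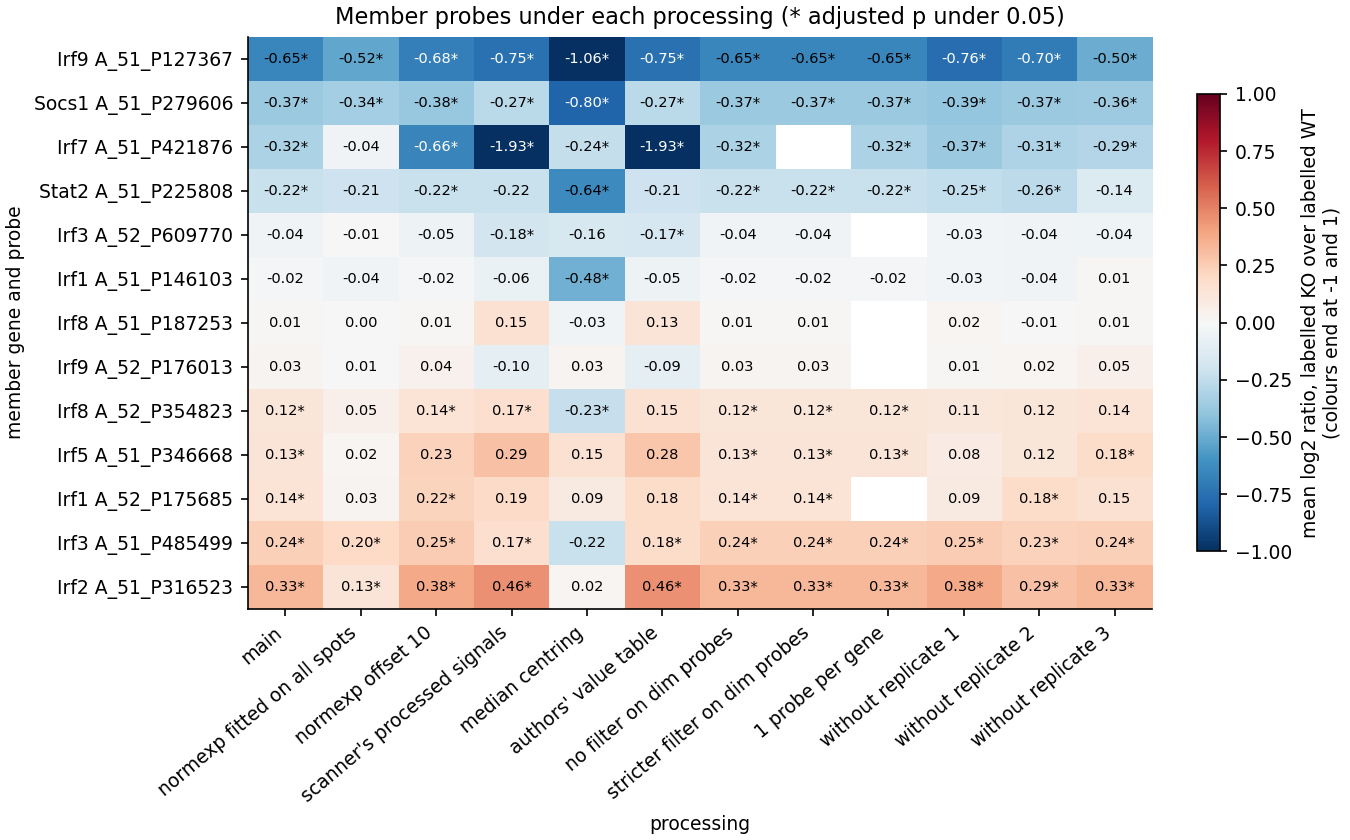
Mean log2 ratio (labelled KO over labelled WT; colour and number) of each member probe (rows) under the main processing and 11 alternatives (columns); an asterisk marks an adjusted p under 0.05 and a blank cell a probe that was not tested. The Irf9 probe A_51_P127367 and Socs1 carry an asterisk in each column, while Irf3 turns to -0.22 under median centring.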

How the data were processed

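The deposited scanner files were made, per the file headers, with Agilent Feature Extraction 9.5.3.1 and hold raw mean spot and median local background intensity values, with probe positions on build mm7. The authors' deposited processed intensity signals had been background-corrected and dye-normalized by that software, and its deposited log10 ratio (red over green) was used to check direction. The authors' value table correlated with the scanner ratios, turned to labelled KO over labelled WT, at r = 0.998, 0.996 and 0.992 and was read as a deposited log2 ratio; each column's median was 0.0276, and its centring and scaling are not given in the sources used here.

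Signals were corrected with limma 3.58.1 in R 4.3.3 (normexp, offset 50) and normalized by loess within each array (span 0.3, control spots at weight 0). The 170, 173 and 242 spots marked as outliers, or with a local background marked as uneven, were left out. The background model was fitted without them. Spots whose local background was marked as a population outlier were also kept out of that fit, but their values were used. They are not in these counts, and their number is not given here. This choice was taken over from an earlier analysis that made it after seeing these data. A probe was tested when well above background in at least 1 channel on all 3 arrays: 63.6 to 65% of spots were so in the labelled KO channel and 65.5 to 68.8% in the labelled WT channel. Ratios were tested against 0 with lmFit and eBayes, with Benjamini-Hochberg adjustment. The number of arrays limits the precision. All arrays lay on 1 slide with 1 scan, so no batch could be tested. The fit was tested on simulated data.

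Of the 41174 probes, 22944 were named through their accession and 9772 through their symbol in the RefSeq table, and 8458 kept the file's name. Members and lists were chosen with earlier results of these data known. The text names every member, the 4 largest ratios past the threshold in each list and, of the 5 genes nearest to Irf9, 4; 1 gene is not reported here and was left out of the lists. Ifnb1, Ifng, cell type markers and list genes tested only through the labelled WT channel and called lower are named besides. A planned comparison of the members' proteins was not run because no protein table was used here.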

Additional observations from a re-analysis of the deposited data

How the results depend on the processing

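Over 11 alternatives the member probes had 138 values: 104 kept their direction and side of the threshold, 24 kept the direction and no longer passed, 3 newly passed and 7 changed sign. The cause of these changes was not tested; fits without 1 array have fewer samples. Member probes higher numbered 5 in the main processing, 2 with normexp fitted on all spots, 3 with the scanner's processed signals, 0 under median centring (limma; 0 at an unadjusted p under 0.05), 2 in the authors' value table and 2 to 3 without 1 array (2 without array 1, 3 without array 2 and 3 without array 3). Member probes lower numbered 4, 2 with normexp on all spots, 6 under median centring and 3 to 4 without 1 array. Under median centring pathway genes higher fell from 19 to 3 and those lower rose from 46 to 69. Targets higher went from 5 to 3 with normexp on all spots and to 1 under median centring. Probes called over the array were 5521 higher and 6291 lower, 2690 and 3670 with normexp on all spots, and 1197 and 13360 under median centring.

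With normexp on all spots the log2 ratios were 0.027 for Irf1 A_52_P175685, 0.019 for Irf5, -0.035 for Irf7, 0.048 for Irf8 A_52_P354823, -0.21 for Stat2 and 0.13 for Irf2. With the processed signals they were 0.19 for Irf1 A_52_P175685, 0.29 for Irf5, -0.22 for Stat2, -0.10 for Irf9 A_52_P176013 and -0.18 for Irf3 A_52_P609770, and with the authors' values 0.18, 0.28, -0.21, -0.091 and -0.17, with 0.15 for Irf8 A_52_P354823. Both Irf3 A_52_P609770 values passed as lower. An offset of 10 gave 0.23 for Irf5. Median centring gave -0.48 for Irf1 A_51_P146103, 0.088 for Irf1 A_52_P175685, 0.016 for Irf2, -0.22 for Irf3 A_51_P485499, 0.15 for Irf5, -0.23 for Irf8 A_52_P354823 and -0.034 for Irf8 A_51_P187253; Irf9, Socs1 and Stat2 went to -1.06, -0.80 and -0.64.

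Leaving out 1 array gave -0.035 to 0.011 for Irf1 A_51_P146103, 0.093 to 0.18 for Irf1 A_52_P175685, 0.082 to 0.18 for Irf5, 0.11 to 0.14 for Irf8 A_52_P354823, -0.0063 to 0.021 for Irf8 A_51_P187253 and -0.26 to -0.14 for Stat2. Irf7 was not tested under the stricter filter on dim probes, nor were second probes with 1 probe per gene. Of 286 values of 26 named genes that are no members, 272 kept direction and side, 8 no longer passed (Jak1, Il10rb and Ifnar2 with the processed signals and in the authors' table, Stat3 under median centring and Ifit3 with normexp on all spots) and 6 changed sign, all under median centring: Ifnab -0.11, Ifngr1 -0.32, Jak1 -0.29, Irf2bpl -0.09, Socs3 -0.19 and Cish -0.17. With normexp on all spots Ifnab was 0.12, Cish 0.11 and Irf2bpl 0.21, and with the processed signals Dhx58 was -0.92, Gbp6 -0.99, Gbp7 -1.47 and Oas1a -2.18; under median centring Ddx58 was -0.99, Ifit3 -1.14, Rnf213 -1.16, Stat6 -0.76, Stat5b -0.76 and Socs4 -0.67, and Il10rb and Ifnar2 were at -0.65 and -0.62. Low signal limits Irf5, Irf7 and the dimmer probes of Irf1, Irf8 and Irf9. Each array's ratio sets both samples of 1 replicate number against each other, so the main test is itself paired.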
